A study of Mus musculus with 4 samples.

Results

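The genes described here encode axonemal dynein chains and their assembly factors, the nexin-dynein regulatory complex, radial spoke proteins, cilia and flagella associated proteins (Cfap) and tektins. They were chosen by symbol, from the prefixes Dnah, Dnai, Dnal, Dnaaf, Drc, Odad, Rsph, Cfap and Tekt, and by a mean of at least 1 CPM (reads assigned to a gene, scaled to 1000000 per library) over the libraries. This gave 74 genes of 17654 tested, and no symbol found by the prefixes fell below the limit. They comprised 15 heavy chain, 2 intermediate chain, 3 light chain, 6 assembly factor, 3 regulatory complex, 6 radial spoke, 34 Cfap and 5 tektin genes, so the Cfap genes were the largest group. The prefix Odad matched 0 symbols. The outer arm docking genes are known in these tables by older symbols and were followed in a separate list.

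The testes came from male mice of the strain C57BL/6, and both genotypes were fed western diet, for 18 weeks. There were 2 libraries from wild-type mice (WT, Tas1r3+/+) and 2 libraries from mice lacking Tas1r3, a taste receptor subunit gene (KO, Tas1r3-/-). The age of the mice and the kind of null allele are not given in the sources used here, and no label ties the libraries to separate animals. The p-values therefore reflect how far these libraries lie apart, which may be technical. By estimate, the WT libraries held 1719359 and 1807681 assigned reads and the KO libraries 748637 and 597937, each in the order of replicates 1 and 2, the order used throughout. Tas1r3 itself had 13.8 and 20.5 CPM in WT against 1.34 and 0 CPM in KO, and was itself not called (limma, BH-adjusted p = 0.627).

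A motile axoneme is a ring of microtubule doublets around a central pair. Outer and inner dynein arms on each doublet pull on its neighbour, radial spokes pass signals from the central pair to the arms, and the nexin-dynein regulatory complex links the doublets. Tektins form filaments inside the doublet wall. In the testis these genes are switched on in spermatocytes and spermatids, which build the sperm tail, while the same structures beat in the airways and the efferent ducts with partly different dynein chains. RFX factors, a family of regulators of ciliary genes, recognise the X-box, whose half-site reads GTTGCC.

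The GTTGCC half-site was more frequent in the promoter windows of these genes than in all promoter windows. RefSeq promoter windows on GRCm38.p6, from 250 bases before to 50 bases after a start site, were found for 64 of the 74 genes, in 71 windows. GTTGCC, on either strand, stood in 27 of the 71 windows (38.0%) against 12.5% of 32851 windows of all genes. TGTTTAC, a forkhead factor motif, stood in 4 windows (5.63% against 3.65%), TGACGTCA, the cAMP response element read by CREM, in 1 (1.41% against 1.79%), and CCAAT in 28 (39.4% against 37.4%). The other 8 of the 12 spellings searched were longer X-box forms, which overlap the half-site and stood in 0 to 9 windows. Near-identical copies such as Dnah7a, Dnah7b and Dnah7c were each counted. By role the half-site stood in 4 of 14 heavy chain genes, 4 of 5 assembly factor genes, 3 of 5 tektin genes and 1 of 5 radial spoke genes that had a window. A match is a description of the letters and not a bound site. Stretches of 60 bases around the match are shown for 5 genes from 4 roles, 5′ to 3′ along the gene's strand, chosen from the 25 genes that hold the half-site, while the other 39 genes with a window do not. Capitals mark GTTGCC or its reverse complement GGCAAC.
Drc1 (chr5:30281355-30281414, plus strand): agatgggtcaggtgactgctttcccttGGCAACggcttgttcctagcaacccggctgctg
Dnaaf6 (chr1:31222757-31222816, plus strand): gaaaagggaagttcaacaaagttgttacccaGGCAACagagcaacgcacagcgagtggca
Cfap298 (chr16:90935001-90935060, minus strand): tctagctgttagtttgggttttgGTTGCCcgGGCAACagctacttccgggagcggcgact
Tekt1 (chr11:72361865-72361924, minus strand): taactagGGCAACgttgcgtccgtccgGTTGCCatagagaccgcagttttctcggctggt
Tekt2 (chr4:126325678-126325737, minus strand): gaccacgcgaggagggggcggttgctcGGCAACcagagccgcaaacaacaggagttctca
In Cfap298 both orientations stand side by side. The first base of a match lay 11 bases before the start site in Drc1, 15 in Tekt1, 22 in Tekt2 and 188 in Cfap298. In Dnaaf6 a longer X-box form that holds the match began 59 bases before the start site. The windows of Tekt1 and Tekt2 hold 2 half-sites each, of which the nearest to the start site was taken, and that of Cfap298 holds 4. The positions given are therefore no measure of where half-sites lie in general. The 25 genes with the half-site had a median log2 difference between genotypes of 0.01 and the 39 without it -0.11.

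Most of these genes were well expressed in every library, though 10 of the 74 had under 10 estimated reads in a library. Per 1000 transcript bases their median level was 38.0 CPM, against 5.20 CPM for all genes tested, and 66 of the 74 lay above the median gene. Together they took 1.26% and 1.29% of the WT libraries against 1.33% and 1.19% of the KO libraries, so the KO pair enclosed the WT pair. The highest level per length was that of Rsph1, a radial spoke head gene, at 961 CPM per 1000 bases, followed by the assembly factor gene Dnaaf1 at 446 and by Cfap206, a gene of the radial spoke base, at 346.

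No gene of the axoneme set was called between the genotypes. The test was limma on log2(CPM + 1), two-sided, with Benjamini-Hochberg (BH) adjustment over all 17654 genes and a call at an adjusted p under 0.05. It called 0 of 74 members, where 0.00566% of all genes were called, and the members' adjusted p ran from 0.95 to 0.998. At an unadjusted p under 0.05 there were 3 members, against 4.33% of all genes. These were Rsph14, Rsph3a and Dnah5, all lower in KO, where 3.01% of all genes were lower at that level. In KO the mean log2 value was higher for 29 members and lower for 45 (39.2% higher, against 44.9% of all genes). After thinning of the reads to equal depth, by a random draw that was not repeated, these counts were 36 and 38. Without thinning, the median difference was -0.05, against -0.04 over all genes tested. The genotypes did not overlap for 34 members, 15 higher and 19 lower in KO, which is 45.9% against 34.3% of all genes. The ratio of the KO to the WT mean was neither under 0.8 nor over its inverse for 63 members. Among genes of at least 20 CPM this held for 58 of 65 members (89.2%) and for 82.3% of all genes. These shares are not matched for level, as the median was 117 CPM for those members and 56.1 CPM for all such genes. In bulk testis RNA, fewer cells of a type and less RNA per cell cannot be told apart.

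**Figure D1:**
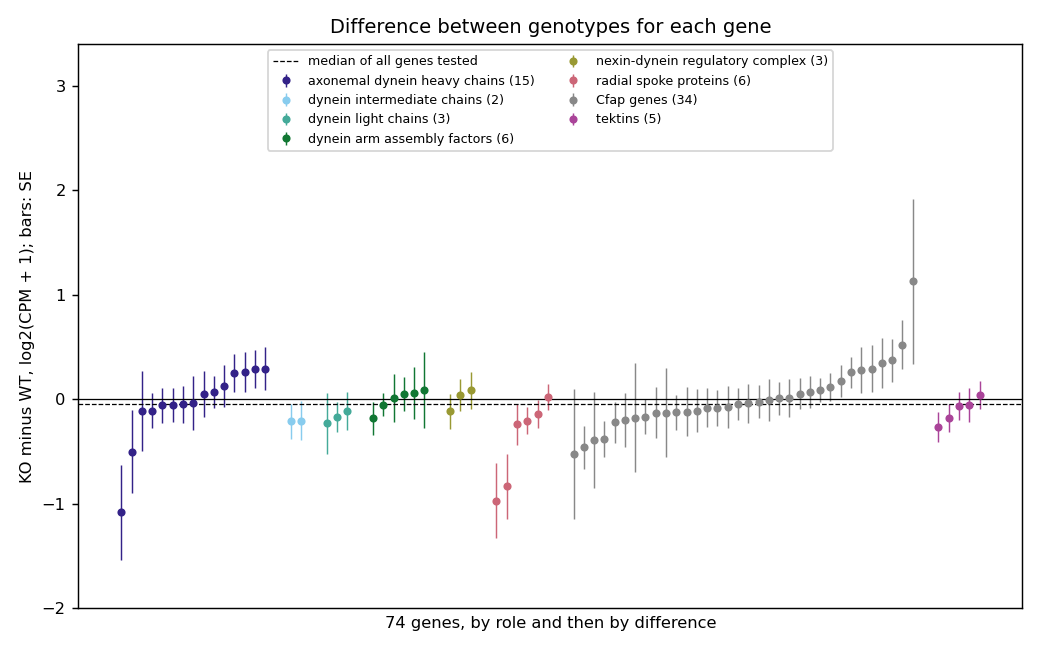
Difference between KO and WT on the log2(CPM + 1) scale for each of the 74 genes, ordered by role and then by size, with bars for the standard error of the fit (n = 2 libraries per genotype). Most points lie near the dashed median of all genes (-0.04). The lowest points are Dnah5 among the heavy chains and Rsph14 and Rsph3a among the radial spoke genes, and the highest is Cfap97d2.

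The heavy chains, the motor subunits, fell into separate levels. Dnah8 and Dnah17, the outer arm heavy chain genes of sperm, stood highest, with a mean of 47.4 and 27.7 CPM per 1000 transcript bases, and the 4-library ranges of Dnah8, Dnah17 and the next gene did not overlap. Dnah1 and Dnah2, of the inner arms, followed at 13.9 and 12.6 CPM per 1000 bases, and their ranges overlapped. A middle group of 8 genes, Dnah7c, Dnah3, Dnah14, Dnah10, Dnah7b, Dnah6, Dnah7a and Dnah12, lay between 8.83 and 6.31 CPM per 1000 bases. Dnah2 overlapped Dnah7c, and neighbours within the group overlapped, except that Dnah7b lay above Dnah6. Dnah9, Dnah11 and Dnah5, the outer arm heavy chain genes of airway cilia, stood lowest, without overlap with Dnah12, at 0.814, 0.682 and 0.579 CPM per 1000 bases, and the mean level of Dnah8 was 81.8 times that of Dnah5.

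Dnah8 had 593 and 714 CPM in WT against 893 and 565 CPM in KO. Dnah17 had 355 and 467 CPM in WT against 536 and 293 CPM in KO. In both genes KO replicate 1 was the highest and KO replicate 2 the lowest library, so the WT values lay between those of KO. Dnah1 had 166 and 180 CPM in WT against 231 and 140 CPM in KO, with the same order. The log2 differences were 0.13 (SE 0.20), -0.04 (SE 0.26) and 0.05 (SE 0.22) for Dnah8, Dnah17 and Dnah1 (limma, BH-adjusted p = 0.963, 0.994 and 0.989). Without KO replicate 1 the difference of Dnah17 was -0.47, and without KO replicate 2 that of Dnah8 was 0.46, so each sign followed the KO library that was kept.

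**Figure D2:**
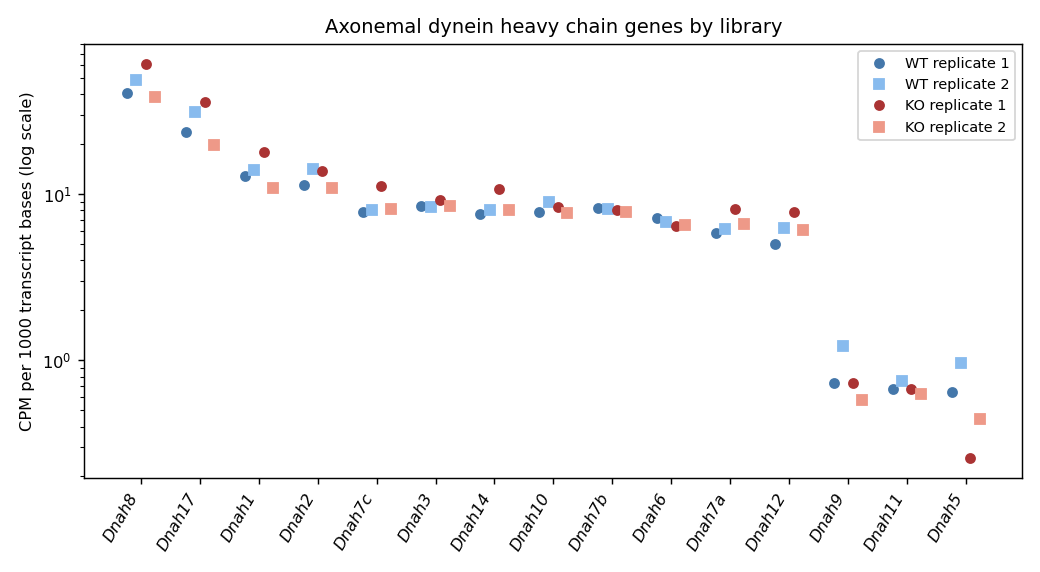
Level of the 15 axonemal dynein heavy chain genes in each library, as CPM per 1000 transcript bases on a log scale, ordered by their mean. Dnah8 and Dnah17 stand highest, Dnah9, Dnah11 and Dnah5 lie near or below 1, and KO replicate 1 is above KO replicate 2 for 13 of the 15 genes.

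Dnah5 had 10.1 and 15.2 CPM in WT against 4.01 and 6.97 CPM in KO, so the genotypes did not overlap. This rested on 17.3 and 27.4 estimated reads in WT and 3.0 and 4.17 in KO, where a read shared among transcripts counts in part. The KO to WT ratio of pooled reads was 0.407 with a 95% exact conditional interval from 0.155 to 0.910. Such an interval covers counting error only and is no test of genotype. The log2 difference of Dnah5 was -1.08 (SE 0.45; limma, BH-adjusted p = 0.95). The other airway outer arm genes lay closer together: Dnah9 had 10.1 and 16.8 CPM in WT against 10.02 and 7.96 CPM in KO, and Dnah11 had 9.44 and 10.6 CPM in WT against 9.53 and 8.82 CPM in KO. Dnah9 also did not overlap, by a narrow margin, and Dnah11 did. Their intervals of the same ratio, 0.317 to 1.3 and 0.424 to 1.77, include 1. Summed, Dnah5, Dnah9 and Dnah11 had 29.6 and 42.5 CPM in WT against 23.6 and 23.8 CPM in KO, without overlap.

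Among the inner arm genes the differences were small. Dnah2 had 156 and 194 CPM in WT against 190 and 150 CPM in KO, and Dnah10, its partner in a two-headed inner arm, had 110 and 126 CPM in WT against 118 and 108 CPM in KO. Dnah3 had 117 and 115 CPM in WT against 126 and 117 CPM in KO. Dnah6 had 91.1 and 86.2 CPM in WT against 81.7 and 82.5 CPM in KO. The genotypes did not overlap for Dnah3 and Dnah6, in opposite directions, by margins of a few CPM. Dnah12 had 61.7 and 76.8 CPM in WT against 95.4 and 75.1 CPM in KO. Dnah14 had 106 and 112 CPM in WT against 150 and 113 CPM in KO, where the lower KO library was within 1 CPM of the higher WT library. Dnah7a, Dnah7b and Dnah7c are near-identical inner arm genes on chromosome 1, among which reads can be divided, so their separate values are uncertain. Summed, they had 270 and 276 CPM in WT against 338 and 278 CPM in KO. Of the heavy chain genes 7 lay higher and 8 lower in KO, with a median difference of -0.04. After thinning of the reads to equal depth 11 lay higher and 4 lower, with a median of 0.10. Over all genes tested the thinned median was -0.003. The thinning was a random draw that was not repeated, so part of this change can come from the draw.

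The long heavy chain transcripts also separated the KO libraries from each other, as long transcripts did in general. Their median length was 13723 bases, against 2717 over all genes tested. KO replicate 1 was above KO replicate 2 for 13 of 15 heavy chain genes. The ratio of KO replicate 1 to KO replicate 2 was 1.58 for Dnah8 (95% exact conditional interval 1.38 to 1.80), 1.83 for Dnah17 (1.53 to 2.20) and 1.65 for Dnah1 (1.26 to 2.16), so these differed by more than counting error. The WT pair differed too, by less. WT replicate 2 over WT replicate 1 was 1.20 for Dnah8 (1.11 to 1.31) and 1.32 for Dnah17 (1.19 to 1.46). For Dnah1 it was 1.08 (0.922 to 1.28). In each genotype 3 of 15 heavy chain genes differed beyond counting error, and WT replicate 2 was higher for 12 of 15. Over all genes of at least 20 CPM the median log2 difference between the KO libraries was -0.32 for transcripts of up to 1000 bases (769 genes), 0.08 between 2000 and 3000 bases (1587 genes) and 0.32 above 12000 bases (85 genes). The WT libraries differed by 0.03 and -0.04 (WT replicate 1 minus WT replicate 2) in the shortest and longest of these classes. Among the members of at least 20 CPM above 12000 bases KO replicate 1 was higher in 11 of 12, against 75.3% of all genes of that length. Beyond counting error, 10 members differed between the KO libraries, all with KO replicate 1 higher. Between the WT libraries 8 members differed, 6 with WT replicate 2 higher and 2 lower. Among members of at least 20 CPM the share for the WT pair was 12.3%, against 11.1% of all genes. For the KO pair it was 13.8%, against 14.6% of all genes, of which 606 had KO replicate 1 higher and 472 lower. The part of this length difference in the genotype comparison was not tested.

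**Figure D3:**
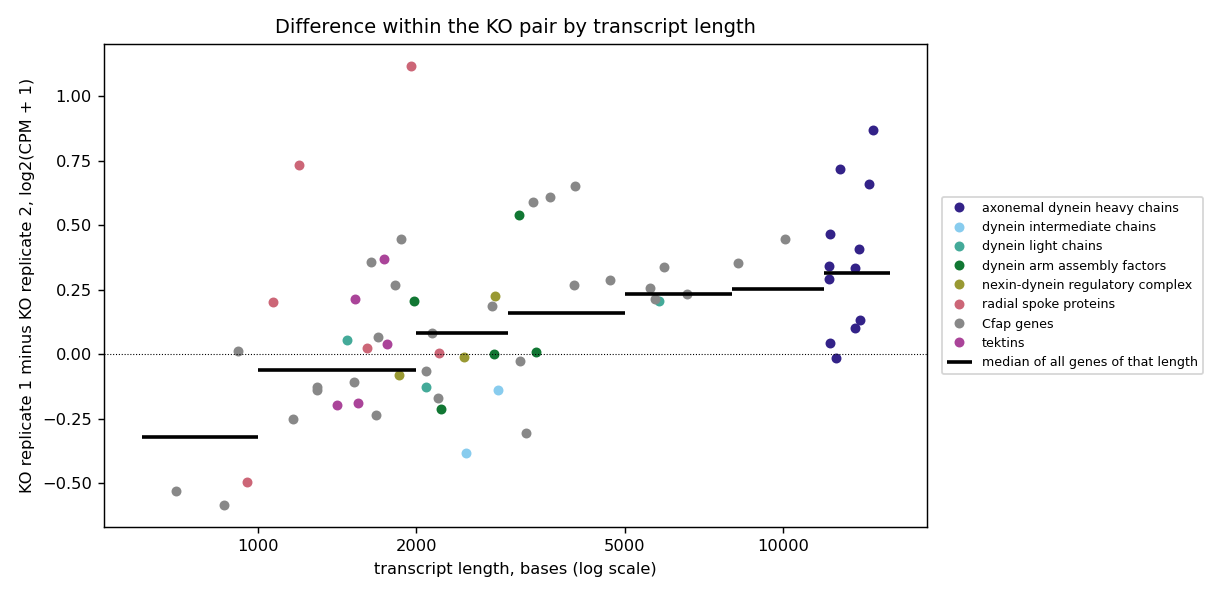
Log2 difference between KO replicate 1 and KO replicate 2 against transcript length, on a log scale, for the 65 members of at least 20 CPM, coloured by role. Black lines mark the median of all genes of that length class, which goes from -0.32 below 1000 bases to 0.32 above 12000 bases, where the heavy chains lie. The highest point is Rsph3a.

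Of the other chains of the dynein arms, both intermediate chain genes and all 3 light chain genes had lower means in KO, and after thinning to equal depth this held for 2 of the 3 light chain genes. Dnaic1 and Dnaic2, the older symbols of the outer arm intermediate chain genes, had 97.97 and 103 CPM and 113 and 131 CPM in WT. In KO they had 76.1 and 99.5 CPM and 100.2 and 110.4 CPM. Dnaic2 did not overlap between genotypes, Dnaic1 did. Dnali1, the inner arm light intermediate chain gene, had 210.0 and 211 CPM in WT against 179 and 196 CPM in KO, without overlap. Dnal4 had 85.5 and 73.5 CPM in WT against 74.8 and 71.9 CPM in KO, and the outer arm gene Dnal1 had 27.3 and 20.2 CPM in WT against 21.4 and 18.4 CPM in KO. The log2 differences of these 5 genes ran from -0.23 (Dnal1, SE 0.29) to -0.11 (Dnal4, SE 0.18), and none passed (limma, BH-adjusted p from 0.95 to 0.963).

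The assembly factors, which help to build dynein arms in the cytoplasm before transport into the tail, had the smallest median absolute log2 difference of the 8 roles, at 0.06. Dnaaf1 had 1291 and 1271 CPM in WT against 1238 and 1237 CPM in KO, and Dnaaf2 had 90.3 and 93.5 CPM in WT against 95.6 and 95 CPM in KO. These values differed by a few percent and did not overlap. Dnaaf3 had 149 and 161 CPM in WT against 127 and 147 CPM in KO, Dnaaf4 34.0 and 27.7 and then 34.5 and 29.7 CPM, and Dnaaf5 51.8 and 59.1 and then 67.4 and 46.1 CPM. Dnaaf6 had 9.44 and 11.6 CPM in WT against 10.7 and 11.7 CPM in KO. Of the 6 genes, 4 had a higher and 2 a lower mean in KO, with log2 differences from -0.18 to 0.09 (limma, BH-adjusted p from 0.95 to 0.998), and after thinning to equal depth 1 was higher and 5 were lower. In the nexin-dynein regulatory complex, Drc1 had 129 and 124 CPM in WT against 129.6 and 130.4 CPM in KO, Drc3 99.5 and 94.3 and then 86.8 and 91.8 CPM, and Drc7 90.0 and 107 and then 113 and 96.1 CPM.

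Radial spoke genes held the lowest log2 differences next to Dnah5. Rsph1 had the highest level per length and overlapped between genotypes, with 1050 and 990 CPM in WT against 1109 and 963 CPM in KO. Rsph3a, one of a pair of mouse genes for the spoke stalk protein, had 301 and 223 CPM in WT against 214 and 98.1 CPM in KO. It lies at chromosome 17, 8164446 to 8198389 on mm39. Its genotypes did not overlap, but KO replicate 1 was close to WT replicate 2, and KO replicate 2 stood apart from the other 3 libraries. The mean was 262 ± 54.8 CPM in WT against 156 ± 81.9 CPM in KO (SD, n = 2), and the log2 difference was -0.83 (SE 0.31; limma, BH-adjusted p = 0.95). Without KO replicate 1 it was -1.39 and without KO replicate 2 it was -0.28.

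Its near copy Rsph3b, at chromosome 17, 7172115 to 7215756, had 405 and 362 CPM in WT against 335 and 329 CPM in KO, also without overlap. Reads can be divided between these copies. Their sum was 706 and 586 CPM in WT against 549 and 427 CPM in KO, with KO below WT and the pairs of a genotype about 120 CPM apart. Rsph3a took 42.6% and 38.1% of that sum in WT replicates 1 and 2, 39.0% in KO replicate 1 and 23.0% in KO replicate 2, so the share was low in 1 library and alike in the other 3.

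Rsph14 had 32.6 and 22.1 CPM in WT against 17.4 and 10.03 CPM in KO, from 56 and 40 estimated reads in WT and 13 and 6 in KO. The gene lies at chromosome 10, 74793309 to 74868419. Its KO to WT ratio of pooled reads was 0.518 with a 95% exact conditional interval from 0.299 to 0.854, and its log2 difference was -0.97 (SE 0.36; limma, BH-adjusted p = 0.95). Without KO replicate 1 it was -1.34 and without KO replicate 2 it was -0.60. Rsph6a, a sperm spoke head gene, had 265 and 293 CPM in WT against 254 and 253 CPM in KO. Rsph9, another head gene, had 116 and 113 CPM in WT against 81.5 and 115 CPM in KO, so its lower mean came from KO replicate 1. In all 5 of 6 radial spoke genes had a lower mean in KO (16.7% higher, against 44.9% of all genes). Their median log2 difference was -0.22 against -0.04 for all genes. The count includes Rsph3a and Rsph3b, between which reads can be divided. It was 5 after thinning and under TMM factors and quantile normalization, which moved the median only to -0.21 and -0.20 and so could hardly change it. Over 13 settings, some of which could not alter a direction, Rsph9 kept its direction in 12, and Rsph1, the gene with a higher mean, in 11. None of the 6 genes passed the test.

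The 5 tektin genes had log2 differences from -0.26 to 0.04, and 4 had a lower mean in KO (3 after thinning to equal depth). Tekt1, Tekt4 and Tekt2 had 270, 267 and 252 CPM per 1000 bases, with overlapping ranges, and lay above Tekt3 and Tekt5 at 114 and 101. Tekt1 had 401 and 377 CPM in WT against 347 and 398 CPM in KO. Tekt2 had 429 and 400.5 CPM in WT against 343 and 391 CPM in KO, without overlap. Tekt3 had 203 and 199 CPM in WT against 220 and 171 CPM in KO, and Tekt4 had 398 and 408 CPM in WT against 446 and 385 CPM in KO. Tekt5, a tektin gene of the sperm tail, had 185 and 205 CPM in WT against 164 and 160 CPM in KO, so both KO values were below both WT values. Its log2 difference was -0.26 (SE 0.15) and that of Tekt2 -0.18 (SE 0.13), neither of which passed (limma, BH-adjusted p = 0.95 for both).

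**Figure D4:**
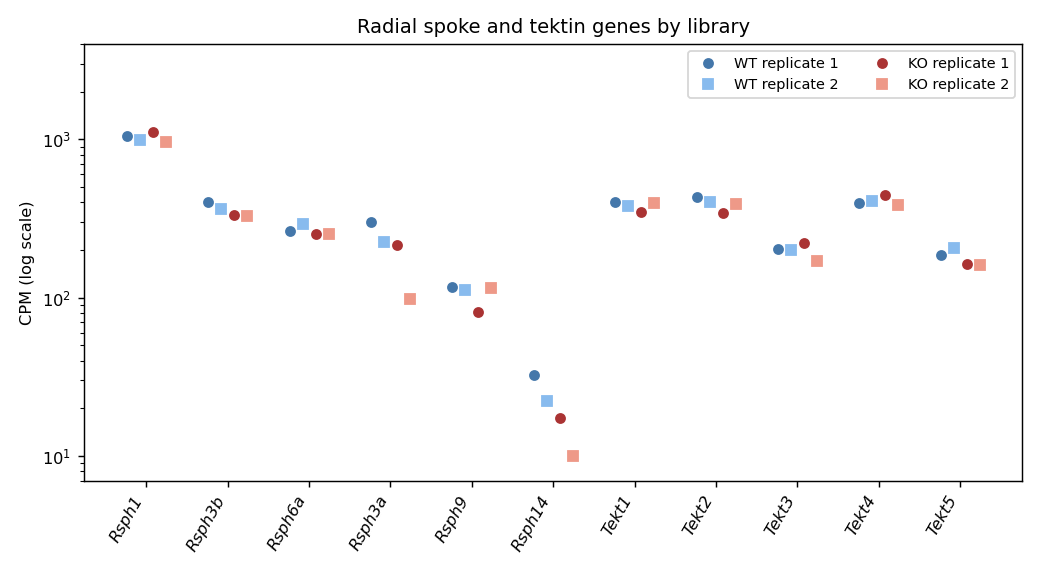
CPM of the 6 radial spoke genes, ordered by their mean, and of the 5 tektin genes in each library, on a log scale. Rsph3a in KO replicate 2 (98.1 CPM) and Rsph14 in both KO libraries (17.4 and 10.03 CPM) lie lowest relative to WT, while the tektin points lie close together.

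The Cfap genes encode proteins of several parts of the axoneme, and 14 of 34 had a higher and 20 a lower mean in KO, with a median log2 difference of -0.04, and after thinning to equal depth there were 17 of each. Genotypes did not overlap for 9 genes higher and 4 lower in KO, together 38.2% against 34.3% of all genes. On the higher side stood Cfap221, of the central pair apparatus, with 26.1 and 25.4 CPM in WT against 40.1 and 35.1 CPM in KO. Its mean was 25.8 ± 0.476 CPM in WT against 37.6 ± 3.5 CPM in KO (SD, n = 2) and its log2 difference 0.52 (SE 0.24; limma, BH-adjusted p = 0.95). Cfap100 had 45.5 and 58.5 CPM in WT against 69.1 and 65.2 CPM in KO, and Cfap97 had 255 and 237 CPM in WT against 325 and 266 CPM in KO. Cfap99 had 26.0 and 33.5 and then 37.4 and 38.1 CPM, Cfap300 41.4 and 39.6 and then 56.1 and 43.6 CPM, and Cfap69, needed for the sperm tail in mouse, 227 and 222 and then 228 and 283 CPM. Cfap206 had 701 CPM in both WT libraries and 729 and 763 CPM in KO. Cfap97d2 had 4.00 and 0 estimated reads in WT and 2.00 in each KO library, a difference not detectable at this depth.

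The 4 genes lower in KO without overlap were Cfap20, Cfap52, Cfap53 and Cfap61. Cfap20, of the inner junction that closes the doublet, had 89.6 and 93.0 CPM in WT against 66.7 and 73.6 CPM in KO, a log2 difference of -0.38 (SE 0.17). Cfap53, an inner protein of the doublet, had 84.9 and 88.5 CPM in WT against 73.4 and 53.5 CPM in KO, a log2 difference of -0.46 (SE 0.20). Neither passed (limma, BH-adjusted p = 0.95 for both), and without KO replicate 1 Cfap53 had -0.69. Cfap57 and Cfap77, which overlapped between genotypes, had -0.44 and -1.56 without KO replicate 1 but 0.22 and 0.52 without KO replicate 2. Cfap77 rested on 20.5 and 21.2 estimated reads in WT and 13.0 and 2.00 in KO. Cfap52, of the doublet wall, had 93.6 and 97.3 CPM in WT against 80.1 and 90.2 CPM in KO, and Cfap61, of a complex at the spoke base, had 67.2 and 66.3 and then 62.8 and 52.0 CPM. Cfap45, another inner protein of the doublet, overlapped, with 261 and 307 CPM in WT against 301 and 249 CPM in KO. Cfap74 lies 392 kb from Tas1r3 on chromosome 4, the nearest of the 6 members on that chromosome. It had 107 and 133 CPM in WT against 132 and 110 CPM in KO, so its genotypes overlapped.

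Single transcripts were tested in the same way, and the forms of Cfap126 differed more between the genotypes than its sum. Of the members' 95 transcripts 94 reached 1 CPM, 0 were called (limma, BH over 28243 transcripts, of which 0% were called), and 2 had an unadjusted p under 0.05, which is 2.13% against 6.26% of all transcripts. Cfap126, a gene of basal body position known as Flattop, summed to 143 and 141 CPM in WT against 148 and 147 CPM in KO. Its form NR_166655, which the accession marks as non-coding, had 1.08 and 0.488 CPM in WT against 19.3 and 65.1 CPM in KO. The form NM_001379426 had 107 and 103 CPM in WT against 85.7 and 47.1 CPM in KO. NR_166655 thus made up 0.760% and 0.345% of the gene in WT and 13.0% and 44.4% in KO. It starts upstream, at chromosome 1, 170941555, and ends at 170954520, where NM_001379426 spans 170950614 to 170954520. Pooled, this form had 2.75 estimated reads in WT against 53.4 in KO, a ratio of 46.3 from reads rounded to whole numbers, with a 95% exact conditional interval from 15.0 to 232 that takes the software's division of reads as given. The log2 difference was 4.38 (SE 0.76), and it did not pass over all transcripts (limma, BH-adjusted p = 0.661).

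The shares of the forms in 3 other genes, singled out after their values were seen, were equal in both KO libraries or differed widely within a genotype. In Tekt2 the form NM_001357262 took 63.1% of the gene in each KO library, and in Rsph14 the form NM_001163533 took 17.4% in each, although the genes' levels differed between these libraries. In WT NM_001163533 took 54.0% and 42.9% of Rsph14, and its log2 difference was -2.07 (SE 0.63; limma, BH-adjusted p = 0.688 over all transcripts). Forms of Dnal1 exchanged places within a genotype: NM_028821 took 97.7% and 25.0% of the gene in WT and 4.78% and 74.6% in KO.

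**Figure D5:**
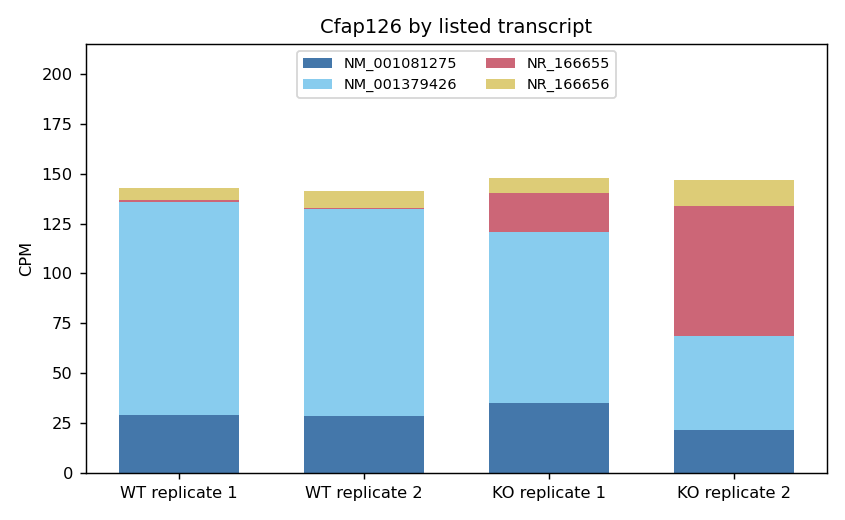
CPM of the 4 listed Cfap126 transcripts, stacked, in each library. The stacks reach nearly the same height, from 141 to 148 CPM, while NR_166655 takes 19.3 and 65.1 CPM in the KO libraries and about 1 CPM or less in WT.

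Axoneme genes outside the name pattern were tested as a separate list. Of 74 listed partners 65 were tested, 0 were called, 25 had a higher and 40 a lower mean in KO, and the median log2 difference was -0.04. Genotypes did not overlap for 7 partners higher and 11 lower in KO. Ccdc151, an outer arm docking gene, had 101 and 85.5 CPM in WT against 68.9 and 62.9 CPM in KO (log2 difference -0.49, SE 0.18). The other docking genes Ccdc114, Armc4 and Ttc25 overlapped between genotypes. Spaca9, of the doublet lumen, had 326 and 316 CPM in WT against 243 and 271 CPM in KO, and Spef2, of the central pair, had 36.0 and 27.0 and then 23.5 and 16.9 CPM. None passed (limma, BH-adjusted p = 0.95 for Ccdc151, Spaca9 and Spef2). Of 14 measured regulators of ciliary and spermatid genes, 0 were called by limma, 0 had an unadjusted p under 0.05, and 10 had a lower and 4 a higher mean in KO. Myb, Mybl1 and Crem were higher and Rfx2 and Creb3l4 lower without overlap, which is 3 and 2 of 14. Over all genes 15.1% were higher and 19.2% lower without overlap, 34.3% together. Crem had 223 and 228 CPM in WT against 229 and 230 CPM in KO. Mybl1, a regulator of spermatocyte genes, had 40.4 and 36.3 CPM in WT against 44.1 and 45.2 CPM in KO, and Myb had about 5 or fewer estimated reads in each library. Rfx2, a main RFX factor of spermatids, had 461 and 512 CPM in WT against 434 and 379 CPM in KO without overlap, and Foxj1, the forkhead regulator of motile cilia, had 113 and 107 CPM in WT against 108 and 81.9 CPM in KO.

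Germ cell lists were present in every library. The sums ran from 34695 to 45673 CPM over 12 elongating spermatid genes and from 3416 to 4004 CPM over 10 round spermatid genes, with genotypes that overlapped. The 12 spermatocyte genes summed to 4914.5 and 4699 CPM in WT against 4988 and 4958 CPM in KO. The 9 spermatogonial genes summed to 175 and 154 CPM in WT against 196 and 206.5 CPM in KO. The sums of these last lists were thus higher in KO without overlap. In the order given, 5, 6, 11 and 7 genes of the germ cell lists had a higher mean in KO. The sums over 10 Sertoli, 8 Leydig and 7 macrophage genes ran from 1560 to 1787, from 1650 to 1899 and from 54.1 to 62.7 CPM, with genotypes that overlapped for Sertoli and macrophage genes. Leydig genes summed to 1810 and 1899 CPM in WT against 1650 and 1697 CPM in KO, with 4 genes higher and 4 lower. Most of that sum was Insl3, at 1517 and 1464 CPM in WT against 1234 and 1278 CPM in KO. Cyp17a1, Star and Lhcgr had higher means in KO. Cyp17a1 overlapped, with 46.5 and 129 CPM in WT against 135 and 127 CPM in KO, so its difference came from WT replicate 1. Star overlapped too, and Lhcgr rested on 4.76 to 10.4 estimated reads per library. Of the other genes of the list, Hsd3b6 was higher and Hsd3b1, Cyp11a1 and Hsd17b3 were lower in KO, all with overlap. The 6 peritubular myoid genes summed to 118 and 123 CPM in WT against 89.6 and 90.4 CPM in KO, and each of the 6 had a lower mean in KO. The list for multiciliated epithelium, which lines the efferent ducts and also builds axonemes, summed over 11 measured genes to 285 and 271 CPM in WT against 262 and 223 CPM in KO. Of these 11 genes 10 were lower in KO. In KO replicate 2, the shallowest library, 3 of the 11 were at 0. Germ cells also express Foxj1, the largest member of this list. Of the list, Ccno and Epcam were lower and Cdhr3 higher in KO without overlap, and the other 8 measured genes overlapped. Over all genes 34.3% did not overlap between genotypes. Ccno rested on 9.58 and 7.12 estimated reads in WT against 2.31 and 1.00 in KO, and Cdhr3 on 2.00 or fewer in each library. The part of these cells in the values of the axoneme genes was not tested. Of these cell type lists 0 genes were called by limma, and at an unadjusted p under 0.05 there were 2 spermatocyte genes and 1 round spermatid gene higher and 1 myoid gene lower in KO.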

How the data were processed

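Testis RNA of 2 WT and 2 KO samples was compared. Per the labels' protocols, libraries were built with an Ion Total RNA-Seq kit from 2 µg of total RNA. The submitters' processing notes name STAR, Partek and the build mm39, without versions or roles. The authors deposited 1 table per library of CPM for 29342 RefSeq transcripts, and each column sums to 1000000. The unit was inferred from the values: the commonest low values are multiples of the CPM of 1 read, 0.582 and 0.553 in WT and 1.34 and 1.67 in KO, from which reads were estimated. Within 0.01 reads, 21.0% to 46.8% of genes per library had whole reads, so no count model was fitted.

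Values were summed per symbol (10 symbols on several chromosomes kept apart). The test was limma (version 3.58.1, R 4.3.3) with its mean-variance trend, on log2 values after a pseudocount of 1 CPM, for genes averaging 1 CPM or more, BH-adjusted over all of them. Fold changes on this scale understate those of low genes. Levels per length use the deposited transcript length, weighted by expression. Intervals pool reads and cover counting error only. The members and lists were chosen with earlier results of these data known. Named were all heavy chain, radial spoke and tektin genes, in each role the gene of highest level per length and the 2 of smallest p per direction, and up to 10 non-overlapping members per direction. To these came up to 4 transcripts per direction and up to 3 genes of each other list, some described only through their list. Cfap45, Cfap52, Cfap57, Cfap61, Cfap74, Cfap77, Dnaaf4, Dnaaf5, Dnal4, Mybl1, Creb3l4, Crem, Cdhr3, Lhcgr, Hsd3b1, Hsd3b6, Cyp11a1, Hsd17b3 and forms of Dnal1 were added after their values were seen. Figures were drawn with matplotlib 3.10.9.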

Additional observations from a re-analysis of the deposited data

How the results depend on the processing

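Settings varied were the pseudocount (0.1 or 5 CPM), the filter (none, or 5 CPM on average), TMM factors, quantile normalization, no mean-variance trend, an adjusted p under 0.1, thinning to the shallowest library, the replicate number as a block, and each library left out. The count of members called was 0 in all of these except the last 2 kinds. With the highest transcript in place of the sum, only the median log2 difference was recomputed, at -0.06. With a library left out it ran from 0 to 6, from 0 to 1 for higher and from 0 to 6 for lower in KO, and the median log2 fold change of the members ran from -0.103 to 0.0568. The fits without KO replicate 1 (6 members, 954 genes called) and without KO replicate 2 (1 member, 413 genes) take their spread from the WT pair and assume that the lone KO library varies like it. With the replicate block 1 member was called, Rsph3a, lower in KO, among 24 genes (limma, BH-adjusted p = 0.0161). No label says that the numbers pair libraries: the WT and KO differences between numbers correlated at -0.01 over all genes tested. Of 961 values for the 74 members, 891 kept their direction, and 38 of the 73 genes run in all 13 settings kept it in each. These counts include settings that could not alter a direction. The filters, the mean-variance trend and the replicate block leave a gene's log2 difference unchanged. WT depth averaged 2.62 times that of KO, and 10 members had under 10 estimated reads in a library, so their differences are the least certain.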
